A study of Rattus norvegicus with 9 samples.

Results

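The RNA of rat whole blood with DNAgel was compared with that of untreated blood, gene by gene. DNAgel is a hydrogel of salmon sperm DNA crosslinked with PEGDA, studied as a material that stops bleeding. The comparison covered the genes with an FPKM (a read level scaled for transcript length and library total) over 0.1 in at least 3 of the 9 libraries of the study, which were 3561 of the 12854 genes in the table. There were 3 libraries of blood incubated for 15 min with DNAgel, 3 of blood incubated for 15 min with a gelatin sponge (GS), and 3 of blood labelled Control. How long the Control blood was kept is not stated, so time outside the body and contact with the gel cannot be told apart. The labels of the libraries give neither strain nor age nor sex, and the animals named in the study's methods for its bleeding tests are male Sprague-Dawley rats. Whether each library of a group stands for its own rat is not stated either, and the p-values therefore cover the spread among these libraries, some or all of which may be technical.

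Blood that leaves a vessel meets foreign surfaces, on which platelets stick and change shape through their actin skeleton and the coagulation factors turn fibrinogen into fibrin. Platelets and mature red cells have no nucleus and cannot transcribe, so their RNA was made earlier by megakaryocytes and erythroblasts, while the white cells can switch on immediate-early and cytokine genes within minutes. DNA from outside the body is sensed in white cells by receptors such as TLR9 and cGAS, which lead to interferon. Each value here is an average over all blood cells, and fewer cells of a type and less RNA per cell cannot be told apart.

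No gene passed the test in either direction. With edgeR's quasi-likelihood test and Benjamini-Hochberg adjustment, 0 genes were higher (0%) and 0 genes were lower (0%) with DNAgel than in the Control at an adjusted p under 0.05, and the lowest adjusted p was 0.522. At an unadjusted p under 0.05, which takes no account of the number of genes, 54 genes were higher (1.52%) and 81 were lower (2.27%). DESeq2 on the same counts called 5 genes, 2 higher, Ccdc90b among them, and 3 lower (Furin, Actb and Lasp1). In 176 genes all 3 DNAgel libraries lay above all 3 Control libraries (4.94%), and in 186 they lay below (5.22%).

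The differences were small where the counts were high enough to measure them. The median log2 fold change of DNAgel over Control was −0.01 over the tested genes, with 1743 genes above 0 and 1818 below. In 2805 genes (78.8%) the estimate was under 1.5-fold either way. A p that misses the threshold does not show that values were alike, so each log2 fold change was given a 95% interval. The interval lay within 1 on the log2 scale, a 2-fold difference either way, in 1426 genes (40.0%). It did so in 262 of the 274 genes with a mean count of at least 1000 and in 499 of the 578 genes with a mean count from 100 to 300. It did so in 3 of the 892 genes with a mean count from 10 to 30 and in 0 of the 396 genes under 10. In 1058 genes the interval reached past 1 on both sides, which leaves room for a 2-fold difference in either direction.

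**Figure D1:**
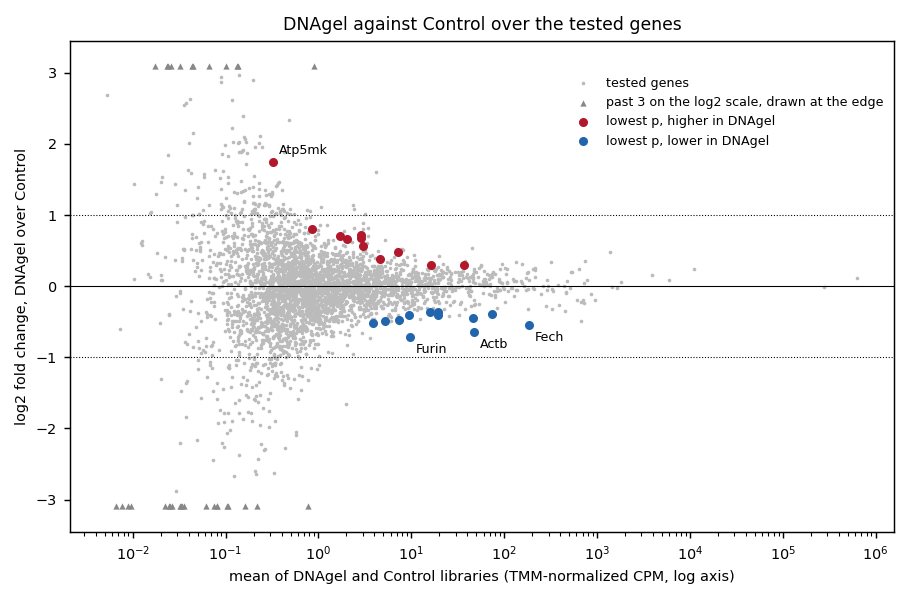
Each point is 1 of the 3561 tested genes, with its mean level in the DNAgel and Control libraries (TMM-normalized CPM, log axis) and its log2 fold change of DNAgel over Control. Triangles are the 12 genes above 3 and the 21 genes below −3, drawn at the edge, and the colored points are the named genes of lowest unadjusted p, 11 higher and 12 lower. The cloud narrows toward high levels, where nearly all genes lie between −1 and 1.

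Hemoglobin transcripts set the depth. The 9 hemoglobin genes took 90.3%, 89.1% and 91.3% of the summed FPKM with DNAgel, against 90.3%, 90.9% and 88.4% in the Control, a difference of 0.385 percentage points (exact two-sided permutation test, p = 0.7, where 0.1 is the smallest p that these libraries allow). Total counts ran from 51838917 to 68076324 with DNAgel and from 64383719 to 66647051 in the Control. Outside the hemoglobin genes 2393802 to 2772356 counts were left with DNAgel, against 2779554 to 3216776 in the Control, so these ranges did not overlap (exact two-sided permutation test, p = 0.1). They include an entry with no symbol, ENSRNOG00000062356, which lies within the span of the globin gene Hbb-b1 on the other strand. Without that entry, left out after the data were seen, the counts were 2331414, 2120476 and 2647423 with DNAgel, against 2494401, 2658250 and 2875135 in the Control, and the ranges overlapped (exact two-sided permutation test, p = 0.2). The lowest total was that of DNAgel replicate 2, and Control replicate 3 had the most genes with a count, 8417, against 6508 to 6977 with DNAgel and 6905 and 6963 in the other Control libraries. The tissue label was checked on marker genes. Red cell and platelet markers were high in all libraries (Alas2, the first enzyme of heme synthesis in red cells, had a mean FPKM of 819 and the platelet chemokine Pf4 had 357), Alb had 4 counts in all with DNAgel and 12 in the Control, and the white cell markers Cd14, Csf3r, Cxcr2, Cx3cr1, Ccr2 and Cd3e were too low to be tested. Other white cell markers were tested at low levels, among them S100a9 with a mean FPKM of 11.7 with DNAgel and 8.90 in the Control, S100a8 with 7.54 and 7.69, Csf1r with 0.163 and 0.168 and Ms4a1 with 0.336 and 0.290.

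The 12 genes in each direction with the lowest unadjusted p, a symbol, a mean FPKM of at least 1 in the higher group and no overlap between the DNAgel and Control libraries were picked, and those reported here are described one by one. None of them passed the adjusted threshold, and their lack of overlap was a condition of the choice, not a result. Their levels are in CPM (counts scaled to a fixed library total after TMM scaling, which evens out differences in composition), and a log2 fold change is DNAgel over Control. The standard error (SE) and the interval come from the fit of all 9 libraries.

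Among the genes lower with DNAgel, Furin had the lowest p of all tested genes. It encodes a protease of the Golgi that cuts proproteins at paired basic residues, and lies on chromosome 1 from 134348144 to 134364314 in the table's coordinates. Furin had 8.02, 6.65 and 7.46 CPM in the DNAgel libraries, against 13.1, 12.2 and 11.2 CPM in the Control libraries. The highest DNAgel library thus lay well below the lowest Control library, while the GS libraries, with 11.4, 9.96 and 11.6 CPM, reached into the Control range. The log2 fold change was −0.72 (SE 0.14, 95% interval −1.01 to −0.42), with an unadjusted p of 1.47e-04 and an adjusted p of 0.522 from edgeR.

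Actb, which encodes β-actin and lies on chromosome 12 from 11663109 to 11672877, had the next lowest p among these genes. It had 40.3, 32.4 and 38.4 CPM with DNAgel, against 58.7, 60.5 and 54.6 CPM in the Control. No DNAgel library reached the lowest Control library, and the GS libraries lay between and within them, at 53.3, 44.3 and 58.1 CPM. The log2 fold change was −0.64 (SE 0.14, 95% interval −0.94 to −0.35, adjusted p = 0.608 from edgeR). β-actin and γ-actin have nearly the same coding sequence, so the authors' counting could have split reads between Actb and Actg1. The Actg1 entry on chromosome 10 had a log2 fold change of −0.46 (SE 0.18) and overlapped, with 9.55, 13.7 and 8.42 CPM in the DNAgel libraries, against 13.2, 14.0 and 16.4 CPM in the Control libraries.

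Msn encodes moesin, which ties actin filaments to the plasma membrane, and had 3.16, 3.71 and 2.76 CPM with DNAgel, against 4.20, 4.12 and 5.38 CPM in the Control. Its log2 fold change was −0.51 (SE 0.19), and GS stood as low as DNAgel, with 2.85, 3.39 and 3.06 CPM. Mical2 encodes an enzyme that oxidizes actin and so takes filaments apart. It had 7.09, 5.62 and 5.91 CPM with DNAgel, against 7.44, 7.90 and 10.5 CPM in the Control, where DNAgel replicate 1 lay just under the lowest Control library.

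Fech, which encodes ferrochelatase, the enzyme that puts iron into protoporphyrin in the last step of heme synthesis, was the most abundant of the 12. It had 182, 114 and 158 CPM with DNAgel, against 222, 244 and 194 CPM in the Control. DNAgel replicate 2 was the lowest library, and the GS libraries at 206, 180 and 254 CPM ran from below the lowest to above the highest Control library. The log2 fold change was −0.54 (SE 0.18, 95% interval −0.93 to −0.16, adjusted p = 0.994 from edgeR).

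Pabpc1 encodes the protein that coats the poly(A) tails of mRNA in the cytoplasm, and had 35.2, 46.1 and 37.3 CPM with DNAgel, against 46.7, 49.7 and 64.6 CPM in the Control. The gap between the groups was narrow, since DNAgel replicate 2 and Control replicate 1 lay next to each other, and the log2 fold change was −0.44 (SE 0.15). Mbnl1, a regulator of alternative splicing, had a log2 fold change of −0.40 (SE 0.15), and Ccni, which encodes cyclin I, one of −0.39 (SE 0.16). The remaining genes were Gm5471 at −0.49, Tprg1l at −0.41, Vopp1 and Cdr2 at −0.36 each, with SEs from 0.12 to 0.16. Gm5471 carries the name of a mouse gene model and has only a short entry, so reads of a related gene cannot be told apart from its own.

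**Figure D2:**
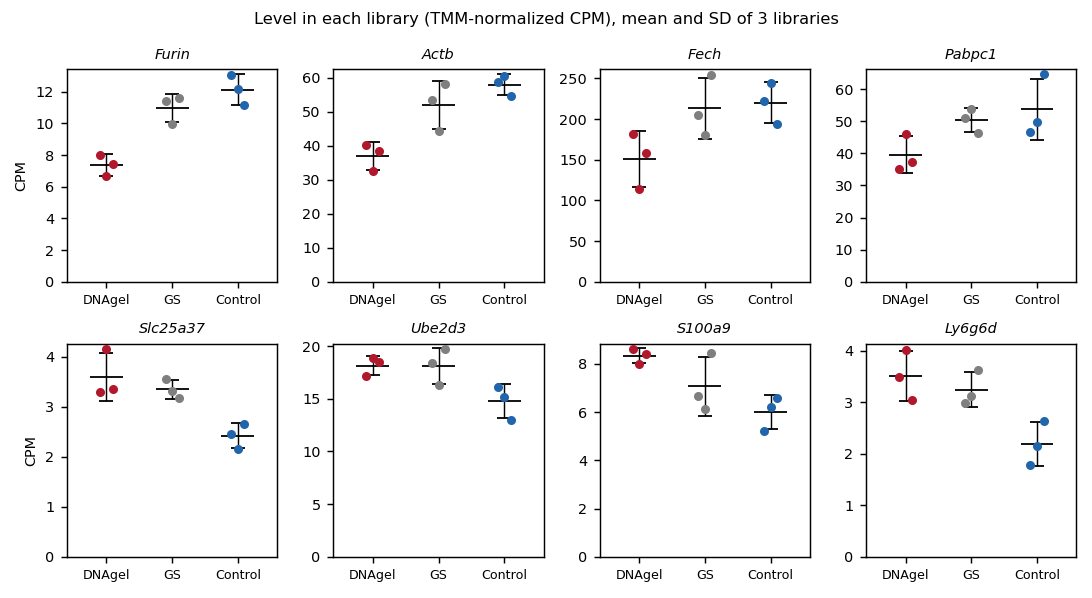
Each point is 1 library and each panel 1 gene, with the TMM-normalized CPM on an axis from 0, the DNAgel libraries at the left, GS in the middle and Control at the right. Horizontal lines are the means and bars the SD of 3 libraries. As the choice of the genes requires, all DNAgel points lie under all Control points in Furin, Actb, Fech and Pabpc1. In Slc25a37, Ube2d3, S100a9 and Ly6g6d they lie above them, by the same choice.

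Among the genes higher with DNAgel, none had an unadjusted p as low as those of Furin and Actb. Ly6g6d, a member of the Ly6 family of surface proteins, had the lowest of the 12, with 3.49, 4.01 and 3.04 CPM with DNAgel, against 1.79, 2.14 and 2.63 CPM in the Control. The log2 fold change was 0.68 (SE 0.21, 95% interval 0.24 to 1.13, adjusted p = 0.994 from edgeR). GS was nearly as high as DNAgel, with 2.99, 3.12 and 3.63 CPM. Slc25a37 encodes mitoferrin, which carries iron into the mitochondria of red cell precursors for heme synthesis. It had 3.30, 4.15 and 3.34 CPM with DNAgel, against 2.44, 2.16 and 2.66 CPM in the Control, with GS again above the Control at 3.56, 3.31 and 3.18 CPM, and a log2 fold change of 0.57 (SE 0.19).

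S100a9 encodes 1 chain of calprotectin, a calcium-binding protein that fills the cytosol of neutrophils. It had 8.61, 7.99 and 8.39 CPM with DNAgel, against 5.21, 6.20 and 6.57 CPM in the Control, which is a log2 fold change of 0.47 (SE 0.16). Its partner chain S100a8 had 3.28, 2.71 and 2.56 CPM with DNAgel, against 2.63, 2.52 and 3.07 CPM in the Control, and a log2 fold change of 0.06 (SE 0.20). In GS, S100a9 reached into both ranges, from 6.12 to 8.44 CPM.

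Ube2d3, which encodes an enzyme that hands ubiquitin to its ligases, had 17.1, 18.8 and 18.5 CPM with DNAgel, against 16.1, 15.2 and 13 CPM in the Control, with a log2 fold change of 0.30 (SE 0.13). All DNAgel libraries lay above all Control libraries, and GS, from 16.3 to 19.7 CPM, reached into the DNAgel range. Ubb, a polyubiquitin gene, had 500, 660 and 698 CPM with DNAgel, against 683, 669 and 807 CPM in the Control, and the groups overlapped through DNAgel replicate 3.

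The other genes of this direction had a low level or a small difference. Phospho1, a phosphatase of phosphocholine and phosphoethanolamine that is high in red cell precursors, had a log2 fold change of 0.29 (SE 0.13) and DNAgel replicate 2, at 34.7 CPM, stood only just above the highest Control library at 34.2 CPM. Ybx1, which encodes an mRNA-binding cold shock protein, was at 0.71 (SE 0.27), Tmem128 at 0.67 (SE 0.24), Pin4 at 0.80 (SE 0.31) and Ubxn11 at 0.39 (SE 0.16). Rpl32-ps3, with a log2 fold change of 0.71, is named as a pseudogene of the ribosomal protein gene Rpl32, so its reads may belong to the parent gene. Atp5mk, a small subunit of ATP synthase, has 2 entries that differed. The entry of that name on chromosome 10 had 0.446, 0.373 and 0.693 CPM with DNAgel, against 0.122, 0.203 and 0.12 CPM in the Control, which is a log2 fold change of 1.75 (SE 0.70). The entry of the same name on chromosome 1 went the other way, at −0.98 (SE 0.41).

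**Figure D3:**
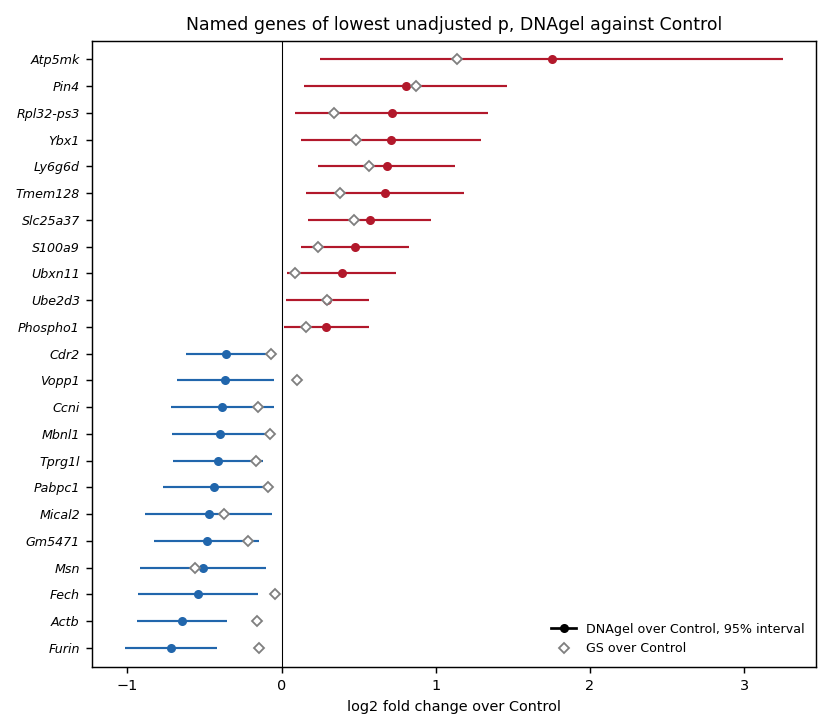
Rows are 23 named genes of lowest unadjusted p and the horizontal axis is the log2 fold change over Control. Filled circles are DNAgel over Control with the 95% interval of the fit, and open diamonds are GS over Control in the same fit. No interval crosses 0, as the choice of the genes requires, and the GS diamonds of Furin, Actb and Fech lie well apart from the DNAgel circles.

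The same fit gave the comparisons with GS, which share the Control or the DNAgel libraries with the one described here. GS against Control called 1 gene higher (0.0281%) and 22 lower (0.618%), and DNAgel against GS called 29 higher (0.814%) and 0 lower (0%). For the lower genes the log2 fold change of GS over Control was −0.14 in Furin, −0.16 in Actb, −0.05 in Fech and −0.09 in Pabpc1, against −0.72, −0.64, −0.54 and −0.44 for DNAgel. Msn was at −0.51 for DNAgel and −0.56 for GS, and Mical2 at −0.47 for DNAgel and −0.37 for GS. The direct comparison of DNAgel with GS did not pass for any of these 4, with log2 fold changes of −0.57 in Furin (adjusted p = 0.102 from edgeR), −0.49 in Actb, −0.50 in Fech and −0.35 in Pabpc1.

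Immediate-early genes, the transcription factors and regulators that cells switch on first after a stimulus, were not told apart from untreated blood. None of the 17 tested genes of this list was called, 0 had an unadjusted p under 0.05, and the median log2 fold change was 0.16, against −0.01 for the tested genes as a whole. Jun, a subunit of the factor AP-1, had 3.01, 4.25 and 2.88 CPM with DNAgel, 0.535, 1.23 and 0.320 CPM with GS, and 3.09, 2.06 and 3.17 CPM in the Control. The DNAgel and Control libraries overlapped, while every GS library lay below both. The log2 fold change of DNAgel over Control was 0.29 (SE 0.36, 95% interval −0.48 to 1.05).

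Fos, the partner of Jun, had 2.90, 3.66 and 2.56 CPM with DNAgel, 0.466, 1.09 and 0.284 CPM with GS and 3.39, 3.26 and 2.58 CPM in the Control, with a log2 fold change of DNAgel over Control of −0.02 (95% interval −0.75 to 0.71). Zfp36, which encodes a protein that speeds the decay of cytokine mRNAs, was at 0.15 (95% interval −0.37 to 0.67), and Egr1, a zinc finger factor, at 0.17. Btg1, which slows cell division, was the most abundant of the list and had 3.81, 3.00 and 2.79 CPM with DNAgel, against 4.55, 3.67 and 3.17 CPM in the Control. The sum over the 17 genes was 23.5 to 28.4 CPM with DNAgel, 7.15 to 12 CPM with GS and 22.7 to 26.9 CPM in the Control. Under a filter at a mean FPKM of at least 1, which left fewer genes, the median was −0.14.

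The chaperones of the endoplasmic reticulum and heat shock gave the same order of groups in part. Hspa5 encodes BiP, the main chaperone of that compartment, and had 7.40, 6.81 and 6.22 CPM with DNAgel, 1.02, 2.08 and 2.35 CPM with GS, and 7.20, 7.84 and 5.80 CPM in the Control. Its DNAgel and Control libraries interleaved, with a log2 fold change of −0.03 (SE 0.24). Calr, the most abundant of the list, encodes calreticulin and had 30.8, 42.6 and 40.3 CPM with DNAgel, against 37.7, 36.1 and 42.5 CPM in the Control. Over the 19 tested genes the median was −0.15, with 15 below 0, against 51.1% of the tested genes as a whole, and 0 had an unadjusted p under 0.05 in either direction. Without DNAgel replicate 2 the median was −0.31, and without DNAgel replicate 3 it was −0.02. The stress factor Atf4 was at −0.20 (SE 0.25) and its target Asns, asparagine synthetase, at −0.22 (SE 0.18).

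**Figure D4:**
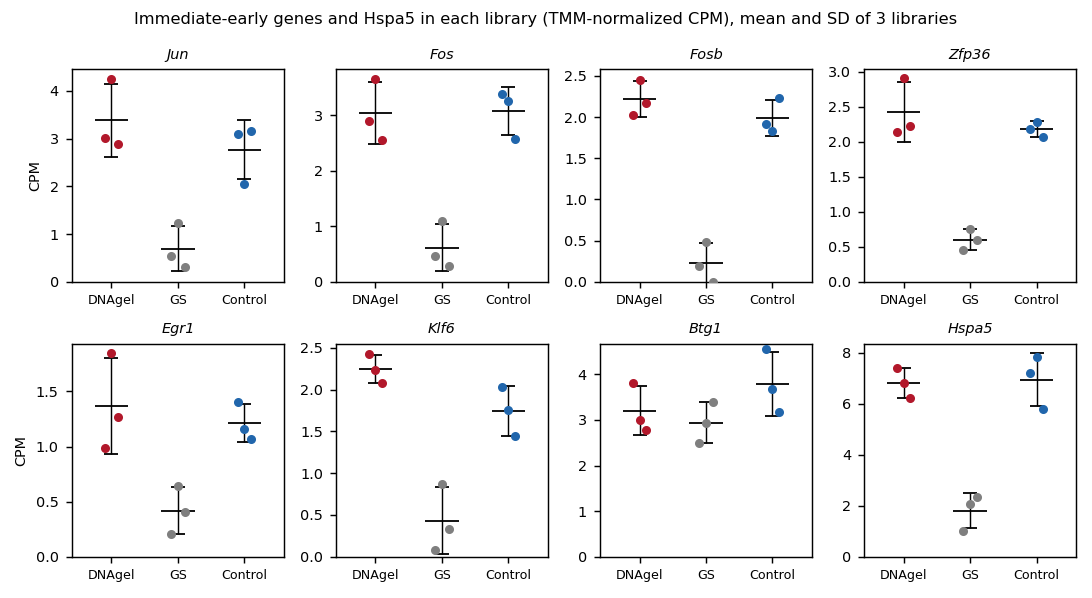
Each point is 1 library, with the TMM-normalized CPM of 7 immediate-early genes and of Hspa5 on axes from 0, DNAgel at the left, GS in the middle and Control at the right. Horizontal lines are means and bars the SD of 3 libraries. In all panels but that of Btg1 the GS points lie below those of the other groups, and in all panels the ranges of DNAgel and Control overlap or, in Klf6, stand next to each other.

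The median of the platelet genes lay close to 0. Of the 28 tested genes of the platelet list 0 had an unadjusted p under 0.05 above the Control and 2 had one below it, Gp1ba and Mmrn1, and the median log2 fold change was −0.03. Single genes ran from −1.33 to 0.39. The 95% interval lay within 1 in 17 of the 28, so the others left room for a 2-fold difference. Pf4, the chemokine of the α-granules and the most abundant of the list, had 235, 246 and 242 CPM with DNAgel, against 254, 233 and 289 CPM in the Control. The groups overlapped, with a log2 fold change of −0.10 (95% interval −0.41 to 0.20). Clec1b, which encodes the platelet receptor CLEC-2, had 41.4, 40.9 and 44.5 CPM with DNAgel, against 39.9, 35.1 and 41.5 CPM in the Control, which is a log2 fold change of 0.12 (95% interval −0.21 to 0.45).

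Gp1ba encodes the chain of the von Willebrand factor receptor that binds its ligand. It had 0.191, 0.339 and 0.166 CPM with DNAgel, against 0.672, 0.594 and 0.481 CPM in the Control, from 11 to 20 counts with DNAgel and 36 to 44 in the Control, with a log2 fold change of −1.33 (SE 0.46, adjusted p = 0.994 from edgeR). Among the other chains of this receptor Gp1bb was at 0.10 (SE 0.18) and Gp9 at −0.14 (SE 0.47, 95% interval −1.16 to 0.89), and whether the chains differ from each other was not tested. Thbs1, which encodes thrombospondin of the α-granules, had 5.53, 4.20 and 4.53 CPM with DNAgel, 1.74, 2.48 and 1.56 CPM with GS and 4.57, 4.17 and 4.02 CPM in the Control. Itga2b, the platelet integrin αIIb, was at −0.02 (SE 0.30). Selp, which encodes the activation marker P-selectin, was too low to be tested, with 4, 4 and 0 counts with DNAgel against 0, 7 and 0 in the Control. The list's median moved with single libraries, at −0.28 without DNAgel replicate 2 and 0.13 without Control replicate 3.

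Genes of signaling downstream of platelet receptors had a median of −0.09 over 18 tested genes, 12 of them below 0, and 0 at an unadjusted p under 0.05. Rap1b, the small GTPase that switches on platelet integrins, had 22.9, 22.1 and 20.4 CPM with DNAgel, against 23.1, 21.6 and 21.4 CPM in the Control, with a 95% interval from −0.29 to 0.26. Cdc42, a GTPase of the actin skeleton, had 21.3, 20.7 and 24.5 CPM with DNAgel, against 20.5, 22.2 and 18.3 CPM in the Control. Several kinases and lipases of the pathway were too low to be tested, among them Syk with 0, 6 and 0 counts with DNAgel against 0, 17 and 32 in the Control, and Plcg2 with 0 counts in both groups. In the KEGG pathway Platelet activation, as the table annotates it, the median was −0.16 over 42 tested genes, with 11 above and 31 below 0, where 51.1% of the tested genes as a whole lay below. Those at an unadjusted p under 0.05 were Gp1ba, Actb and Actg1 below the Control and Vamp8, which encodes a vesicle protein of granule release, above it at 1.06 (SE 0.33).

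Few coagulation genes could be measured. Of the list 4 genes were tested, 3 of them below 0, with a median of −0.42 that ran from −0.80 with the replicate block to −0.05 without Control replicate 2. F13a1, which encodes the A chain of the enzyme that crosslinks fibrin, had 4.10, 7.37 and 4.17 CPM with DNAgel, against 5.44, 6.51 and 9.07 CPM in the Control, with a log2 fold change of −0.43 (95% interval −0.96 to 0.11). Procr, the receptor of protein C, was at 0.08 (95% interval −0.38 to 0.53). F5, factor V, was not tested and had 32, 30 and 12 counts with DNAgel, against 20, 22 and 31 in the Control.

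The genes of the red cell list, which leaves out the hemoglobin chains, were close to the Control in nearly all members. Of 40 tested genes 20 lay above and 20 below 0, the median was −0.01, and in 35 the 95% interval lay within 1. At an unadjusted p under 0.05 there were Slc25a37 above the Control and 3 genes below it, among them Bpgm and Fech. Alas2 had 1645, 1520 and 1656 CPM with DNAgel, against 1607, 1704 and 1597 CPM in the Control, which is a log2 fold change of −0.03 (95% interval −0.27 to 0.22). Bpgm, which makes the 2,3-bisphosphoglycerate that lowers the oxygen affinity of hemoglobin, had 333, 354 and 364 CPM with DNAgel, against 423, 434 and 403 CPM in the Control. It was lower in every DNAgel library, though by a log2 fold change of only −0.26 (SE 0.11).

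Iron and heme genes did not move as a block. Within heme synthesis the log2 fold change was −0.03 in Alas2, −0.27 in Alad, −0.27 in Cpox and −0.54 in Fech, and it was 0.04 in Urod and 0.71 (SE 0.66) in Ppox. Car2, carbonic anhydrase of red cells, had 860, 656 and 870 CPM with DNAgel, against 805, 754 and 677 CPM in the Control, at 0.09 (95% interval −0.20 to 0.38). Hbb-b1 and Hba-a2, the main β- and α-globin genes, were at 0.12 (SE 0.11) and −0.01 (SE 0.12). Copies of the same globin chain can be near-identical, so the split of reads among such copies is uncertain. The median of 0.24 over the 8 tested hemoglobin entries rests on minor ones.

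White cell lists were thin. Of the neutrophil list 10 genes were tested, with a median of 0.19 and only S100a9 at an unadjusted p under 0.05. That median ran from −0.14 without DNAgel replicate 2 to 0.63 without Control replicate 3. Srgn, which encodes the granule proteoglycan serglycin, had 2.41, 3.98 and 2.37 CPM with DNAgel, against 3.68, 2.35 and 4.78 CPM in the Control. Of the monocyte list 11 genes were tested, with a median of 0.06. Lyz2, lysozyme, had 12.1, 13.7 and 9.37 CPM with DNAgel, against 7.98, 10.5 and 15.0 CPM in the Control, and Ctsb, a lysosomal protease, was at 0.06 (95% interval −0.27 to 0.39). Apoe had 11.5, 10.6 and 9.57 CPM with DNAgel, 0.829, 2.54 and 3.27 CPM with GS and 9.79, 9.55 and 8.84 CPM in the Control.

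T cell genes had a median of −0.37 over 6 tested genes and B cell genes one of 0.25 over 3, with no interval within 1. The T cell median ran from −0.55 without DNAgel replicate 2 to −0.07 with limma on log2(FPKM + 1), and the B cell median from −0.22 with limma on log2(FPKM + 0.01) to 0.87 without Control replicate 2. Cd3g, a chain of the T cell receptor complex, had 0.909, 0.440 and 0.497 CPM with DNAgel, against 0.871, 0.391 and 0.908 CPM in the Control. Il7r, the receptor of interleukin-7, had 0, 0.356 and 0.256 CPM with DNAgel, against 0.397, 0.449 and 0.468 CPM in the Control, at −1.10 (95% interval −2.96 to 0.76). In the B cell list Cd79b, a signaling chain of the B cell receptor, was at −1.25 (SE 0.51) with 0.239, 0.406 and 0.181 CPM with DNAgel, against 0.489, 0.493 and 0.975 CPM in the Control, while Ms4a1, which encodes CD20, was at 0.25 (SE 0.62). Among cytotoxic and NK cell genes, with a median of 0.12 over 8, the chemokine Ccl5 had 0.669, 0.779 and 0.693 CPM with DNAgel, against 0.581, 1.10 and 2.08 CPM in the Control, and the receptor chain Klrd1 was at 0.06 (SE 0.52). The median of that list was −0.47 without DNAgel replicate 1 and 0.40 without DNAgel replicate 3.

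Whether white cells sensed the salmon DNA of the gel was not tested, since the blood had only a single short incubation. The interferon and DNA sensing list gives levels with DNAgel after that incubation, and none at a later time. Of its 7 tested genes 0 had an unadjusted p under 0.05, and the median was 0.01, which came to 0.41 without Control replicate 3. Rsad2, which encodes the antiviral protein viperin, had 62.5, 54.9 and 52 CPM with DNAgel, against 58.0, 58.1 and 51.9 CPM in the Control, and Irf7, the factor that drives interferon-α genes, had 27.9, 31.3 and 35.3 CPM with DNAgel, against 28.9, 33.0 and 33.7 CPM in the Control. The 95% interval of the log2 fold change ran from −0.27 to 0.30 in Rsad2 and from −0.28 to 0.25 in Irf7. The other interferon-induced genes were less certain, with Isg15 at 0.65 (95% interval −0.10 to 1.39), Ifi27 at 0.57 (−0.21 to 1.36), Isg20 at −0.24 (−0.66 to 0.18) and Ifit3 at −0.45 (−2.09 to 1.18). The sensors themselves were too low to be tested, Cgas with 0, 0 and 4 counts with DNAgel against 0 in each Control library, and Aim2 with 0, 0 and 4 counts with DNAgel against 0, 0 and 10 in the Control.

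Genes of neutrophil extracellular traps, webs of DNA that neutrophils cast out, had a median of 0.32 over 6 tested genes, and none of the 6 had an unadjusted p under 0.05. The median ran from −0.02 without DNAgel replicate 2 to 0.44 without DNAgel replicate 1. Rac2, a GTPase of the oxidative burst, had 0.925, 1.68 and 0.919 CPM with DNAgel, against 0.596, 1.01 and 1.02 CPM in the Control, and Selplg, the ligand of P-selectin, had 1.47, 1.98 and 2.32 CPM with DNAgel, against 1.47, 1.59 and 1.58 CPM in the Control. Padi4, the enzyme that citrullinates histones in this process, had 0, 0 and 4 counts with DNAgel, against 4, 0 and 0 in the Control. Inflammatory signaling genes had a median of −0.29 over 5. Il1b had 0.972, 1.24 and 0.753 CPM with DNAgel, against 0.856, 0.261 and 1.23 CPM in the Control, at 0.33 (95% interval −0.65 to 1.31), and Nfkbia, the inhibitor of NF-κB that is also its target, was at −0.36 (95% interval −1.24 to 0.52).

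**Figure D5:**
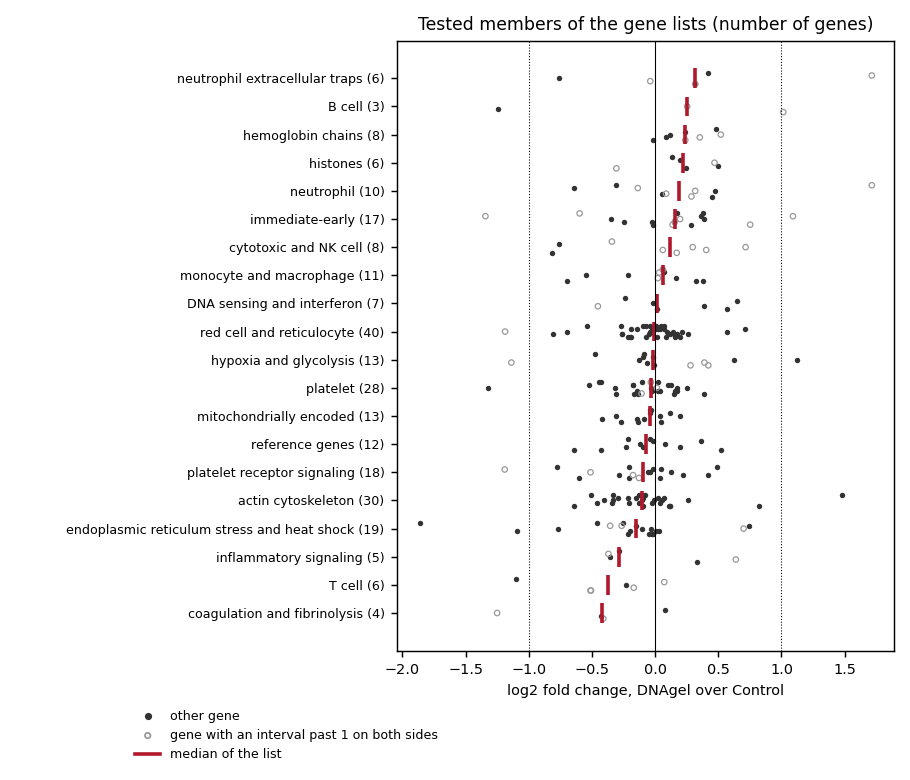
Each row is 1 of the 20 gene lists with its number of tested genes, ordered by median, and each point 1 gene at its log2 fold change of DNAgel over Control. Open points have a 95% interval past 1 on both sides, and red bars are the medians, which run from −0.42 for coagulation and fibrinolysis to 0.32 for neutrophil extracellular traps, and all 3 libraries of each group are in them. The long lists center near 0, and the lists farthest from it hold few genes.

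The actin skeleton drives the shape change of platelets. Of the 30 tested entries of its genes 20 were below 0, against 51.1% of the tested genes as a whole, and the median was −0.10, which came to 3.99e-04 without Control replicate 3. Actb, Msn and Actg1 had an unadjusted p under 0.05 below the Control and Coro1a above it. The summed level of the list was 214 to 238 CPM with DNAgel, against 246 to 264 CPM in the Control, without overlap. Without Actb, a sum added after the data were seen, it was 176, 206 and 175 CPM with DNAgel, against 187, 193 and 210 CPM in the Control, and these ranges overlapped. Arpc2, a subunit of the complex that branches filaments, had 45.1, 60.1 and 64.1 CPM with DNAgel, against 55.7, 60.5 and 65.3 CPM in the Control. Coro1a, which encodes a coronin of white cells, had 3.54, 3.98 and 1.66 CPM with DNAgel, against 1.47, 1.97 and 1.74 CPM in the Control, so DNAgel replicate 3 was within the Control range. Pfn1, profilin, and Cfl1, cofilin, were at 0.03 and −0.08.

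Genes often used to normalize qPCR had a median of −0.07. Of 12 tested, 1 gene had an unadjusted p under 0.05 above the Control and Actb had one below it. Gapdh, a glycolytic enzyme, had 11.3, 11.3 and 13.3 CPM with DNAgel, against 12.2, 10.5 and 13.6 CPM in the Control, at −0.01 (95% interval −0.31 to 0.28). B2m, the light chain of MHC class I, had 580, 549 and 597 CPM with DNAgel, against 518, 451 and 537 CPM in the Control, at 0.20 (95% interval −0.10 to 0.49). Rplp0, a ribosomal protein, was at 0.08 (95% interval −0.18 to 0.34).

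Genes of energy metabolism had medians near 0. Hypoxia and glycolysis genes had a median of −0.01 over 13, and Pkm, pyruvate kinase, had 4.83, 8.01 and 5.29 CPM with DNAgel, against 5.78, 4.65 and 8.80 CPM in the Control. The 13 mitochondrially encoded genes had a median of −0.04 but varied widely between libraries of the same group. Mt-co1, a subunit of cytochrome oxidase, had 521, 819 and 849 CPM with DNAgel, against 684, 611 and 832 CPM in the Control, so DNAgel replicate 1 and Control replicate 3 were the lowest and the highest of their groups, and Mt-co3, another subunit, was at −0.04. Histone genes had a median of 0.22 over 6. Of 2 entries named H3f3a, which encodes histone H3.3, the one on chromosome 13 had 240, 196 and 231 CPM with DNAgel, against 213, 207 and 189 CPM in the Control. The one on chromosome 10 had 8.19, 8.99 and 7.79 CPM with DNAgel, 3.09, 4.12 and 4.30 CPM with GS and 7.26, 6.93 and 6.88 CPM in the Control, and these entries may share reads.

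Over the table's own KEGG annotation, 175 pathways had at least 15 tested genes, and the medians of 106 of them lay within 0.1 of 0. The whole range was −0.29 to 0.27. Of 33 pathways of blood and stress biology, Ribosome had the highest median, 0.12 over 125 genes, with 4 genes above and 1 below the Control at an unadjusted p under 0.05. Rpl11 was at 0.30 and Mrps18c at 0.78, and Rpl3 at −0.42. TNF signaling pathway had the lowest, −0.21 over 22 genes, with 0 at an unadjusted p under 0.05. FoxO signaling pathway had −0.17 over 34 genes, among them Foxo3, a factor of red cell maturation and stress resistance, at −1.27 (SE 0.38). Among 166 GO terms with at least 30 tested genes structural constituent of chromatin had the highest median, 0.20 over 32 genes, with 0 at an unadjusted p under 0.05. Cytosolic small ribosomal subunit followed with 0.17 over 77 genes. At the other end were transmembrane transport, at −0.20 over 32 genes, and unfolded protein binding, at −0.15 over 31 genes.

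Transcript length moved with these values. In the 713 shortest of the tested genes, up to 1060 bases, the median log2 fold change was 0.09, and in the 712 longest, from 3823 bases, it was −0.06. The median length was 1593 bases in the 54 genes higher at an unadjusted p under 0.05 and 2583 bases in the 81 lower ones, against 2195 bases over the tested genes as a whole. Ribosome genes are short, with a median of 1008 bases, and the 646 short genes outside that pathway had a median log2 fold change of 0.09, against 0.12 for the pathway. With each library's length trend taken out, the Ribosome median was 0.08 and that of Platelet activation −0.13. The slope of log2 level on log2 length averaged −0.0221 ± 0.0250 with DNAgel and 0.0288 ± 0.0292 in the Control (SD, n = 3 each) and overlapped between libraries (exact two-sided permutation test, p = 0.2). The part of length in the gene values was not tested beyond this.

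Some genes had counts with DNAgel and none in the Control, or the reverse. Among the tested genes 5 had a count in every DNAgel library and 0 in every Control library. Ccdc90b had 18, 13 and 20 counts with DNAgel, which is at least 4.73-fold above the limit that 0 counts in the Control allow, taken as 12 counts over the group because 4 was the most frequent count in every library. Rpa3, a subunit of the protein that binds single-stranded DNA, had 12, 12 and 14 counts with DNAgel, at least 3.52-fold above that limit. GS held counts of Ccdc90b in 3 libraries and of Rpa3 in 2. In the other direction 5 genes had 0 counts with DNAgel and a count in every Control library, with Pdcd5, a gene linked to apoptosis, at 17, 10 and 16 counts in the Control and 0 with GS, at least 3.22-fold lower with DNAgel. Pdcd5 passed the filter for tested genes through the Control libraries alone, so its pattern was partly set by that filter. Over all genes, tested or not, 36 had a count in every DNAgel library and 0 in the Control, and 83 had a count in every Control library and 0 with DNAgel. The count outside hemoglobin averaged 2366440 with DNAgel and 2675930 in the Control with ENSRNOG00000062356 left out. These limits cover counting error only. With edgeR the adjusted p was 0.626 in Ccdc90b and 0.994 in Rpa3 and in Pdcd5. ENSRNOG00000064848 and AABR07014550.1, also at 0 counts with DNAgel and picked in the same way, had limits of only 1.12 and 0.749.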

How the data were processed

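The authors gave estimated counts, deposited as whole numbers not scaled between libraries, and FPKM values that the authors scaled for transcript length and library total. Tools listed in the submitters' processing notes are StringTie 1.3.4d, HISAT2 2.0.4, cutadapt 1.9, edgeR, DESeq2 and UMI-tools, with neither role nor setting. RNA was selected by poly(A), with strand marking and molecular identifiers. The build listed is one of mouse although the identifiers are those of rat, so coordinates are the table's own and no build is assigned.

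Counts were fitted with edgeR 4.0.16 in R 4.3.3 (TMM scaling, robust quasi-likelihood, all 9 libraries in 1 fit, no block). Benjamini-Hochberg adjustment ran over 3561 genes at a threshold of 0.05. Standard errors are log2 fold changes over the signed root of F, and intervals use the t quantile of the fit. Single values of libraries were compared by exact permutation. The fit was tested on simulated counts. Named were the 12 genes of lowest p in each direction with a symbol, a mean FPKM of at least 1 in the higher group and no overlap, the 2 members of highest CPM of each of 20 lists, and the 5 genes of highest FPKM. Hba-a3, Hbb-bs and an unnamed entry among those 5 are given in the closing section. Some genes that the rule names or a count includes are not reported here. All other genes were chosen after their values were seen. The genes tested, the lists and the rule were chosen with earlier results of these data known. Alternatives were DESeq2 1.42.0, limma 3.58.1 on log2(FPKM + 0.1), with 0.01 and 1 as other pseudocounts, other filters and scalings, counts divided by 4, only the DNAgel and Control libraries, a replicate block, leaving out each library and, added after the data were seen, a length trend and sums without 1 gene.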

Additional observations from a re-analysis of the deposited data

Results flagged for a closer look

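Among the named genes reported here, the difference of DNAgel from the Control and that of GS from the Control differed from each other in 3. Both differences use the same Control libraries and come from the fit of all 9 libraries. Over all tested genes DNAgel against GS called 29 higher (0.814%) and 0 lower (0%), so these 3 are only a part of them. The difference between them equals the log2 fold change of DNAgel over GS. It was 1.12 in the H3f3a entry on chromosome 10 (SE 0.16, adjusted p = 0.00552 from edgeR), 1.91 in Hspa5 (SE 0.26, adjusted p = 0.00262 from edgeR) and 2.26 in Jun (SE 0.39, adjusted p = 0.0167 from edgeR). In these genes the 3 GS libraries lay below the 3 DNAgel libraries and below the 3 Control libraries. Against the Control the DNAgel value was 0.25 in H3f3a, −0.03 in Hspa5 and 0.29 in Jun.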

How the results depend on the processing

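The 24 genes of lowest p kept their direction in all 550 values under 23 alternatives, which their choice for a low p and no overlap nearly fixes, and 4 of these values passed the threshold. DESeq2 called 2 genes higher, Ccdc90b among them, and 3 lower, Lasp1, Furin (adjusted p = 0.00503) and Actb (adjusted p = 0.00853). At a mean FPKM of at least 1, with 940 genes tested, edgeR called 2 lower, Furin (adjusted p = 0.0333) and Actb (adjusted p = 0.0321). Over the alternatives the adjusted p ran up to 1 in both genes. With limma on log2(FPKM + 0.01) 1 was higher and 1 lower, ENSRNOG00000064848, and with no filter 1 was lower, Hpx (adjusted p = 8.32e-04 from edgeR). The other alternatives called 0 genes, leaving out each library included. Lasp1 had 3, 0 and 0 counts with DNAgel against 8, 38 and 44 in the Control, and Hpx had 73, 61 and 44 against 236, 305 and 72, and both are named here after their values were seen.

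At an unadjusted p under 0.05 the counts were 117 higher and 210 lower with no filter, 27 and 31 at a mean FPKM of at least 1, and 29 higher with library totals alone. Leaving out 1 library gave 41 to 108 higher and 56 to 122 lower, both at their highest without DNAgel replicate 2. Genes with an interval within 1 numbered 2162 with limma at a pseudocount of 0.1, 3503 at 1, 2426 with no filter and 821 at a mean FPKM of at least 1, and 1194 to 1464 without 1 library. The cause of these shifts was not tested, beyond the number of genes tested and the damping of low values by a pseudocount. The hemoglobin difference ran from −0.353 to 0.939 percentage points without 1 library, reversed at −0.137 without DNAgel replicate 3 and at −0.353 without Control replicate 3. Same-numbered DNAgel and Control libraries did not deviate together (correlations −0.013, −0.016 and −0.103). Such values cannot tell whether libraries of the same number share a rat or a draw, which is not stated. With the replicate block 0 genes were called, an unadjusted p under 0.05 was reached by 40 genes above and 71 below the Control, and 1355 intervals lay within 1. Depth limits the low genes, since no interval lay within 1 under a mean count of 10.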

Other observations

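The most abundant genes after Hbb-b1 and Hba-a2 were 3 further entries of high FPKM. Hbb-bs had 14778, 9174 and 12147 CPM with DNAgel, against 11551, 9967 and 9115 CPM in the Control, and Hba-a3 had 6831, 4933 and 6479 CPM with DNAgel, against 6452, 6009 and 4770 CPM in the Control. The entry ENSRNOG00000062356, which the table gives no symbol, had 5854, 4628 and 1882 CPM with DNAgel, against 4357, 2117 and 4564 CPM in the Control, a wide spread within each group.

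Some genes made mainly in the liver had counts in untreated blood. Hpx, which encodes the heme scavenger hemopexin, had 73, 61 and 44 counts with DNAgel, 43, 70 and 94 with GS and 236, 305 and 72 in the Control. Rbp4, the carrier of retinol, had 0, 20 and 22 counts with DNAgel, 23, 22 and 37 with GS and 60, 101 and 32 in the Control. F2, prothrombin, had 0, 10 and 0 counts with DNAgel, 0, 0 and 9 with GS and 21, 28 and 13 in the Control. Control replicate 3 was the lowest Control library in Hpx, Rbp4 and F2. These genes were chosen after their values were seen, Alb was at or near 0 in all libraries, and the source of these counts was not tested.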
